A study of Mus musculus with 8 samples.

Results

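The 8 genes described here take part in the making of cholesterol and in its control. They were taken by name from the deposited table of gene counts, where all 8 were found among 24421 genes, and all 8 were among the 17328 genes whose counts were high enough to test. Hmgcs1, Idi1, Fdft1, Sqle, Lss and Dhcr7 encode enzymes of cholesterol synthesis, while Insig1 and Srebf2 encode 2 proteins that control it. None of the 8 encodes a receptor that takes up lipoprotein particles, so uptake is represented among them only through Srebf2, whose product also switches on uptake genes. The rule that picks them is their names and not a threshold on a measured value, though they were proposed with earlier results of these data known.

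RNA was sequenced from dorsal root ganglia, the clusters of sensory nerve cells beside the spinal cord, of C57BL/6J mice. The labels give WT and an age of 8 weeks in all groups. Any difference between groups in age at dissection is not given by the labels and could not be told apart from time after injection. Inflammatory pain was induced with carrageenan, a seaweed polysaccharide, injected at 1% in a volume of 20 µL into the left hind paw. The 4 groups were naive, untreated mice (0d) and injected mice whose ganglia were taken 1 day (1d), 3 days (3d) or 30 days (30d) later, with 2 libraries in each group. Each library came from lumbar ganglia (L3 to L5) pooled from 2 to 3 mice, so the spread between the 2 libraries of a group is a spread between pools, and no vehicle injection is among the groups. The comparisons ask how expression in the ganglia changed with time after the inflammation began.

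Cholesterol is built from acetyl units. Hmgcs1 makes the precursor of mevalonate, Idi1 interconverts the isoprene building blocks made from it, Fdft1 joins farnesyl units to squalene, Sqle and Lss oxidise and fold squalene into the first sterol, and Dhcr7 carries out a last reduction. The membrane-bound transcription factor SREBP2, encoded by Srebf2, switches on these genes when membranes run short of sterol, and the protein encoded by Insig1 holds it back in the endoplasmic reticulum when sterol is plentiful. In peripheral nerve, myelinating Schwann cells are heavy users of this pathway, since cholesterol is a main component of myelin and nerve makes its own supply. Neurons also make sterols and take up cholesterol carried by apolipoprotein E.

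The libraries held 44123208 to 73580338 counts. The labels call the cells DRG neurons, but whole ganglia were dissected. Summed levels of 11 sensory neuron markers ranged from 20549 to 21861 CPM (counts scaled to a common library size, TMM adjusted), and those of 10 markers of myelinating Schwann cells ranged from 5941 to 11485 CPM. Satellite glia (6 markers, 838 to 922 CPM), fibroblasts (6 markers, 1288 to 1917 CPM) and red blood cells (5 markers, 141 to 515 CPM) were also represented, and no marker of any list was at 0 in all libraries. In such bulk tissue, fewer cells of a type and less RNA per cell cannot be told apart. Among the libraries, replicate 1 of 30d stood at an extreme, with the lowest summed myelin markers (5941 CPM) and the highest summed red blood cell markers (515 CPM).

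Hmgcs1 lies on chromosome 13 of the mouse genome (build mm10) at 119690351 to 119708260, and Idi1 on the same chromosome at 8885606 to 8892396. Srebf2 (82147269 to 82204960) and Sqle (59315092 to 59331193) are both on chromosome 15. Insig1 spans 28071412 to 28078662 on chromosome 5, Dhcr7 143823167 to 143848410 on chromosome 7 and Lss 76531605 to 76557139 on chromosome 10. Fdft1 is at 63145151 to 63179578 on chromosome 14, on the minus strand, while the other 7 are on the plus strand. Counting covered the exons of each gene and ignored strand. Of the exon length of Fdft1, 20.9% overlaps exons of Ctsb on the opposite strand, a gene counted at 1398 to 1608 CPM, so reads of Ctsb and Fdft1 could not be told apart there and the level of Fdft1 is uncertain. The level of Idi1 is less certain too, because 21.3% of its 50-base words also occur in the exons of Gm13502 and reads that matched several places were not counted. The same holds for 10.9% of the words of Fdft1, shared with Gm6781, and for 2.49% of those of Insig1, shared with Gm37784. Of the exon length of Lss, 6.02% overlaps 4930483K19Rik, a gene counted at 6.34 to 7.89 CPM.

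The promoters are shown because SREBP2 binds DNA directly in front of genes of this pathway, usually beside sites for the factors NF-Y and Sp1. RefSeq promoter sequences (build GRCm38.p6) were given for 6 of the 8 genes. Sqle and Fdft1 had no entry. The 250 bases before each start site were searched on both strands for the sterol-element letters TCACNCCAC and the shorter TCACCCCA, for CCAAT (the NF-Y motif), for GGGCGG (the Sp1 motif) and for CACGTG (the E-box). The stretches of 200 bases of 4 genes that end at the base before the start site are printed 5′ to 3′ on the plus strand, with every match in capitals, on either strand.
Hmgcs1, chr13:119690151-119690350: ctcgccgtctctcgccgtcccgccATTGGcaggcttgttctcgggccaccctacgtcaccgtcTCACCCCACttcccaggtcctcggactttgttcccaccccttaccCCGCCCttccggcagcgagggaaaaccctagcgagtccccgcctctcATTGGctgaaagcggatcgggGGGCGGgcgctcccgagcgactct
Srebf2, chr15:82147069-82147268: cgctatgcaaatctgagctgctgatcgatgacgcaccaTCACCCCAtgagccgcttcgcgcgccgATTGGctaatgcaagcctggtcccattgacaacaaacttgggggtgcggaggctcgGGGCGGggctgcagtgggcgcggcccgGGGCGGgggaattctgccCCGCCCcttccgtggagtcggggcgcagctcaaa
Insig1, chr5:28071212-28071411: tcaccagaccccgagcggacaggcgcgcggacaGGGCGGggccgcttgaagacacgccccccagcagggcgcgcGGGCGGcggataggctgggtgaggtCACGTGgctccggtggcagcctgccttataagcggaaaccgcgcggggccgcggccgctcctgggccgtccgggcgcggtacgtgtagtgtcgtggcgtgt
Idi1, chr13:8885406-8885605: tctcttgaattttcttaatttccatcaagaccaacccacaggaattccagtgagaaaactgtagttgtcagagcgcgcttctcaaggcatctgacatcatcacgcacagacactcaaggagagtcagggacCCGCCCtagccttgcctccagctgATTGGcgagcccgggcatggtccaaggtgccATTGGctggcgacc
In Hmgcs1 the letters TCACNCCAC and TCACCCCA matched the same place, first base at position -137 counted back from the start site, and in Srebf2 TCACCCCA matched at -162. TCACNCCAC occurred in 1.05% and TCACCCCA in 1.34% of all 32851 mouse promoters searched in the same way. CCAAT and GGGCGG were found in all 6 genes with an entry, against 33.8% and 32.7% of all promoters. CACGTG was found in Insig1 at -101 and in Dhcr7, against 6.02% of all promoters. Dhcr7 has 3 promoter entries and counts where any of them matched (CACGTG in one, CCAAT in another), while the shares are per single promoter. A match is a description of the letters, and the absence of one says only that these letters are not in this window.

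The 8 genes were expressed at levels that differed widely between them and little between libraries. Per kilobase of exon, Hmgcs1 was the highest with a mean of 211 CPM per kb over the 8 libraries (range 192 to 223), above 98.7% of tested genes. Sqle followed at 96.2 CPM per kb, then Fdft1 at 74.7 and Srebf2 at 69.5. Insig1 averaged 45.5 and Dhcr7 41.3 CPM per kb, while Idi1 (mean 14.3) and Lss (range 10.4 to 14.1) were the lowest. The ranges over libraries of neighbours in this order overlapped for Fdft1 and Srebf2, for Insig1 and Dhcr7, and for Idi1 and Lss, although within single libraries Idi1 was above Lss in 7 of 8 and every other gene above the next in 8 of 8. The exon lengths include whole untranslated regions that may not be used in this tissue, which bears on every level per kilobase.

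**Figure D1:**
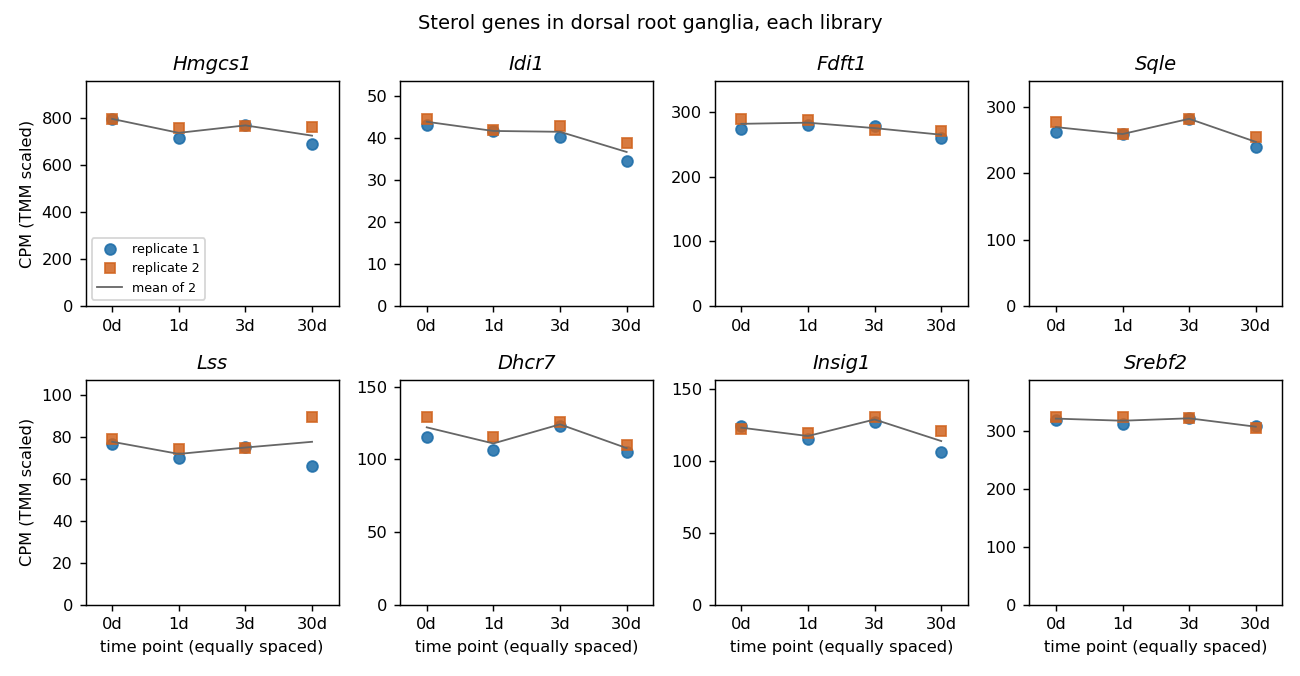
Level of each of the 8 genes in each library, in CPM on the y axis from 0, against the time point on the x axis, where the 4 time points are equally spaced and not to scale in days. Circles are replicate 1, squares replicate 2 and lines join the means of 2. All genes stay within a narrow band, and Lss at 30d, at 66.1 and 89.5 CPM, has its libraries farthest apart in proportion to its level.

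The first enzyme, Hmgcs1, was at 794 and 797 CPM at 0d, at 715 and 759 CPM at 1d, at 770 and 767 CPM at 3d and at 688 and 761 CPM at 30d. Both libraries of each later time point lay below both 0d libraries, but those of 30d spanned most of the range. The log2 fold change against 0d was -0.11 at 1d (SE 0.047), -0.051 at 3d (SE 0.047) and -0.14 at 30d (SE 0.047, 95% interval -0.23 to -0.035). None passed edgeR's quasi-likelihood test with Benjamini-Hochberg adjustment over all tested genes, and the 30d value had an adjusted p of 0.266. It was -0.21 without replicate 2 of 30d and -0.066 without replicate 1 of 30d.

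Idi1 had the largest difference from 0d of the 8 genes. It was at 43.1 and 44.6 CPM at 0d, at 41.5 and 41.8 CPM at 1d, at 40.2 and 42.7 CPM at 3d and at 34.5 and 38.8 CPM at 30d, so that both 30d libraries were below the other 6. Its log2 fold change at 30d against 0d was -0.26 (SE 0.071, 95% interval -0.41 to -0.10), a 16.3% lower level by the point estimate. The difference did not pass edgeR's threshold (adjusted p = 0.184). A fit that leaves out 1 library leaves its group with 1, which is then assumed to vary like the other groups, so such values compare a single library. Without replicate 2 of 30d it was -0.35 with an adjusted p of 0.0419 in edgeR, and without replicate 1 of 30d it was -0.18.

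Fdft1, the enzyme that commits the pathway to sterols, was at 273 and 290 CPM at 0d, 279 and 287 CPM at 1d, 278 and 272 CPM at 3d and 259 and 270.0 CPM at 30d. The 30d libraries were the lowest of the series, while the ranges of 1d and 3d both overlapped that of 0d. Its log2 fold change at 30d was -0.089 against 0d (SE 0.043, adjusted p = 0.420 in edgeR). Ctsb, which shares exon sequence with it, had a log2 fold change of -0.12 in the same comparison (adjusted p = 0.263).

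Sqle, the squalene epoxidase and a known control point of the pathway, was at 261 and 277 CPM at 0d, 259 and 259 CPM at 1d, 282 and 282 CPM at 3d, and 240 and 255 CPM at 30d. The 3d libraries were the highest of all and the 30d libraries the lowest. Its difference between 30d and 3d had the smallest p of any of the 8 genes in any comparison, with a log2 fold change of -0.19 (SE 0.044, 95% interval -0.28 to -0.095), or a 12.3% lower level. In edgeR it missed the threshold (adjusted p = 0.0616), while DESeq2 called it (adjusted p = 0.00899) and limma-voom did not (adjusted p = 0.0652). With a block for the replicate number, without a filter or with only the compared time points edgeR did call it (adjusted p = 0.0408, 0.0120 and 0.0443). In its remaining settings it did not, with adjusted p up to 0.201. edgeR itself called it in the fits without replicate 1 or replicate 2 of 0d or without replicate 2 of 30d (adjusted p = 0.0303, 0.0318 and 0.0461), and the fits without the other 5 libraries gave adjusted p from 0.0683 to 0.590. Against 0d, Sqle differed by 0.065 at 3d and by -0.12 at 30d (adjusted p = 0.963 and 0.278 in edgeR).

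Lss, which closes squalene epoxide into lanosterol, was at 76.6 and 79.0 CPM at 0d, 69.9 and 74.1 CPM at 1d and 75.2 and 74.9 CPM at 3d, and at 66.1 and 89.5 CPM at 30d. The lowest and the highest level of Lss in the series were thus the 2 libraries of 30d. The log2 fold change of 30d against 0d was 0.00097 with a 95% interval of -0.31 to 0.31 (adjusted p = 0.999 in edgeR), so a difference of up to 19.2% lower or 23.9% higher lay within the interval. Against 3d the value without replicate 1 of 30d, with 30d then the single library at 89.5 CPM and its spread borrowed from the other groups, was 0.25 (adjusted p = 0.0363 in edgeR), and without replicate 2 of 30d it was -0.19.

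Dhcr7, the reductase of a last step, was at 115 and 129 CPM at 0d, 107 and 115 CPM at 1d, 123 and 125 CPM at 3d and 105 and 110 CPM at 30d. At 30d both libraries were below both libraries of 0d and of 3d, and the 1d libraries overlapped those of 0d and of 30d. The log2 fold change at 30d was -0.18 against 0d (SE 0.058, 95% interval -0.30 to -0.055, adjusted p = 0.243 in edgeR) and -0.20 against 3d (SE 0.058, adjusted p = 0.140). The value against 0d was -0.26 without replicate 1 of 0d and -0.096 without replicate 2 of 0d. From 1d to 3d it was 0.16 (SE 0.059, adjusted p = 0.791).

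Insig1, the sterol-dependent anchor of SREBP2 and itself a target of that factor, was at 124 and 122 CPM at 0d, 115 and 119 CPM at 1d, 127 and 130.1 CPM at 3d and 106 and 121 CPM at 30d. By group means its order over time was that of Sqle and Dhcr7, with 3d the highest, though the 3d libraries of Dhcr7 lay between its 0d libraries. The log2 fold change of 30d against 3d was -0.18 (SE 0.057, 95% interval -0.30 to -0.057, adjusted p = 0.177 in edgeR), and it was -0.27 without replicate 2 of 30d (adjusted p = 0.0284) and -0.091 without replicate 1. Against 0d it was 0.066 at 3d and -0.11 at 30d (adjusted p = 0.999 and 0.441), and the 30d value was -0.21 without replicate 2 of 30d and -0.025 without replicate 1.

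Srebf2 was the steadiest of the 8 genes, at 320 and 324 CPM at 0d, 312 and 324 CPM at 1d, 323 and 322 CPM at 3d and 310 and 306 CPM at 30d. Its coefficient of variation over the 8 libraries was 2.26%, against 9.12% for Lss, the most variable. At 3d the log2 fold change against 0d was 0.0024 with a 95% interval of -0.080 to 0.085, and at 30d it was -0.064 (SE 0.039, adjusted p = 0.523 in edgeR). The RNA level of Srebf2 does not measure how much SREBP2 is cleaved and active. The median coefficient of variation of the 8 genes was 5.89%, against 4.16% over the 5298 tested genes in the same range of CPM.

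Over the 8 genes, edgeR called 0 at 1d, 0 at 3d and 0 at 30d against 0d, where 0.346%, 0.219% and 0.0231% of all tested genes were called. Between the time points after injection it also called 0, where it called 0.289% of all tested genes from 1d to 3d, 0.935% from 3d to 30d and 0.571% from 1d to 30d. DESeq2 called Sqle in 30d against 3d and 0 in the other 5 comparisons, and limma-voom called 0 in all 6. In 30d against 3d those tools called 378 and 172 of all 17328 tested genes, and in the other 5 DESeq2 called 109 to 229 and limma-voom 2 to 81. At an unadjusted p under 0.05 in edgeR, 2 of 8 were lower at 1d than at 0d (Hmgcs1 and Dhcr7), against 2.11% of all tested genes. At 3d there were 0, against 5.94% in either direction. At 30d 4 of 8 were lower than at 0d (Hmgcs1, Idi1, Sqle and Dhcr7), against 6.02% of all tested genes. Between 30d and 3d there were again 4 of 8 (Idi1, Sqle, Dhcr7 and Insig1, all lower at 30d), against 6.97%, and from 1d to 3d there were 3 (Sqle, Dhcr7 and Insig1, all higher at 3d), against 2.24%. In 30d against 1d there were 2 of 8 (Idi1 and Fdft1, both lower at 30d), against 5.89%. These counts moved with the processing. In 1d against 0d the 2 became 0 with the length or the GC trend removed, and from 1d to 3d the 3 became 1 and 0 in those fits. In 30d against 0d the 4 became 6 without a filter and 3 with the GC trend removed. In 30d against 3d it became 3 with the GC trend removed, and in 30d against 1d the 2 became 1 with either trend removed. The counts moved with single libraries as well. In 30d against 0d the 4 became 7 without replicate 2 of 30d, 2 without replicate 2 of 0d and 3 to 5 in the other fits that left out 1 library. In 30d against 3d it became 6 without replicate 2 of 30d and 2 without replicate 2 of 3d. From 1d to 3d the 3 became 0 without replicate 2 of 3d and 1 without replicate 1 of 1d or of 3d. In 1d against 0d the 2 became 0 without replicate 2 of 0d, replicate 1 of 1d or either library of 3d, 1 without replicate 1 of 0d and 3 without either library of 30d. In 3d against 0d the 0 became 1 without replicate 2 of 0d. In 30d against 1d the 2 became 0 without replicate 2 of 1d, 1 without replicate 1 of 1d, replicate 1 of 30d or either library of 3d, and 4 without replicate 2 of 30d. The test for any difference over the 4 time points called 0 of 8, with adjusted p from 0.175 for Sqle to 0.948 for Lss, while 1.02% of all tested genes passed it. At an unadjusted p under 0.05 it found 5 of 8 (Hmgcs1, Idi1, Sqle, Dhcr7 and Insig1), as for 1898 of the 17328 tested genes.

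The 30d libraries lay below those of 0d and 3d for nearly all of the 8 genes. In 7 of 8 both 30d libraries were below both 0d libraries, against 20.2% of all tested genes, and in 7 of 8 they were below both 3d libraries, against 23.5%. The exception in both was Lss, whose log2 fold change against 0d changed sign with the setting (-0.044 to 0.011 over 10 other settings). Against 1d the 30d libraries lay less low. Both were below both 1d libraries in 4 of 8 genes, against 3528 of the 17328 tested genes, and the median log2 fold change of the 8 genes was -0.045. At 1d, 5 of 8 (Hmgcs1, Idi1, Sqle, Lss and Insig1) had both libraries below both 0d libraries, against 16.4% of all tested genes, and at 3d 3 of 8 were below and 2 above, against 19.6% and 19.9%. The comparisons with 0d share the same 2 libraries, and the levels of the 8 genes move together between libraries, so these counts are not 8 separate observations. The median log2 fold change of the 8 genes was -0.072 at 1d, -0.016 at 3d and -0.12 at 30d against 0d, and -0.13 at 30d against 3d. The signed medians over all tested genes in these 4 comparisons were -0.0032, -0.0021, -0.00040 and 0.00048. The 3d median changed sign with single libraries, from -0.054 without replicate 1 of 0d to 0.010 without replicate 2 of 0d. Without replicate 2 of 30d the medians of the 8 genes were -0.21 against 0d and -0.21 against 3d, and without replicate 1 of 30d they were -0.070 and -0.083.

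**Figure D2:**
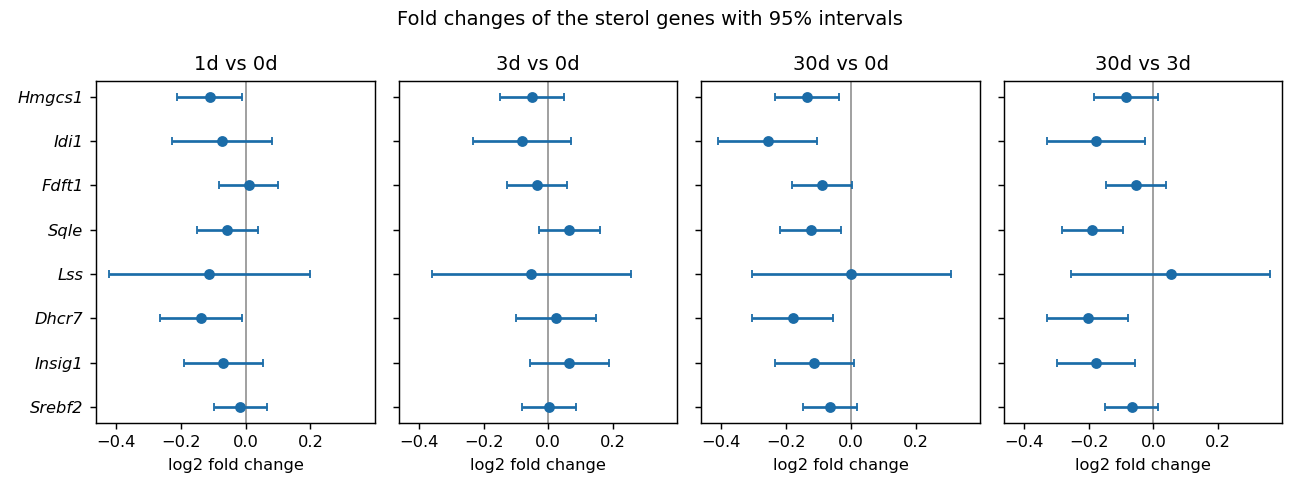
Log2 fold change (x axis) of each of the 8 genes (y axis) in 4 comparisons, with edgeR estimates as points and 95% intervals, not adjusted for the number of genes, as bars. The points of 7 genes lie left of 0 in 30d against 0d and in 30d against 3d, and Lss has the widest intervals, -0.31 to 0.31 in 30d against 0d.

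The other genes of cholesterol synthesis were placed beside the 6 enzymes among the 8, giving 19 genes from Acat2 to Dhcr7. edgeR and limma-voom called 0 of the 19 in each comparison, while DESeq2 called Sc5d in 1d against 0d and Sqle in 30d against 3d (110 and 378 of all 17328 tested genes). At 30d against 0d 17 of 19 had a log2 fold change below 0, against 50.1% of all tested genes, and 9 of 19 were lower with an unadjusted p under 0.05 (6.02% of all tested genes). In 30d against 3d 16 of 19 were below 0 (49.9% of all tested genes), and 6 of 19 were lower with an unadjusted p under 0.05 (6.97% of all tested genes). Msmo1, a demethylase of the sterol ring, was at 190 and 206 CPM at 0d and 163 and 183 CPM at 30d (log2 fold change -0.20, SE 0.057, adjusted p = 0.195 in edgeR). Mvd and Pmvk, which act on mevalonate, differed by -0.20 and -0.16 in this comparison (adjusted p = 0.308 and 0.301), and Mvk by -0.018. Sc5d, a desaturase, was at 110 and 115 CPM at 1d against 129 and 132 CPM at 0d (log2 fold change -0.22, SE 0.052, adjusted p = 0.164), and Tm7sf2, a sterol reductase, differed by -0.12 at 30d against 0d (adjusted p = 0.490).

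**Figure D3:**
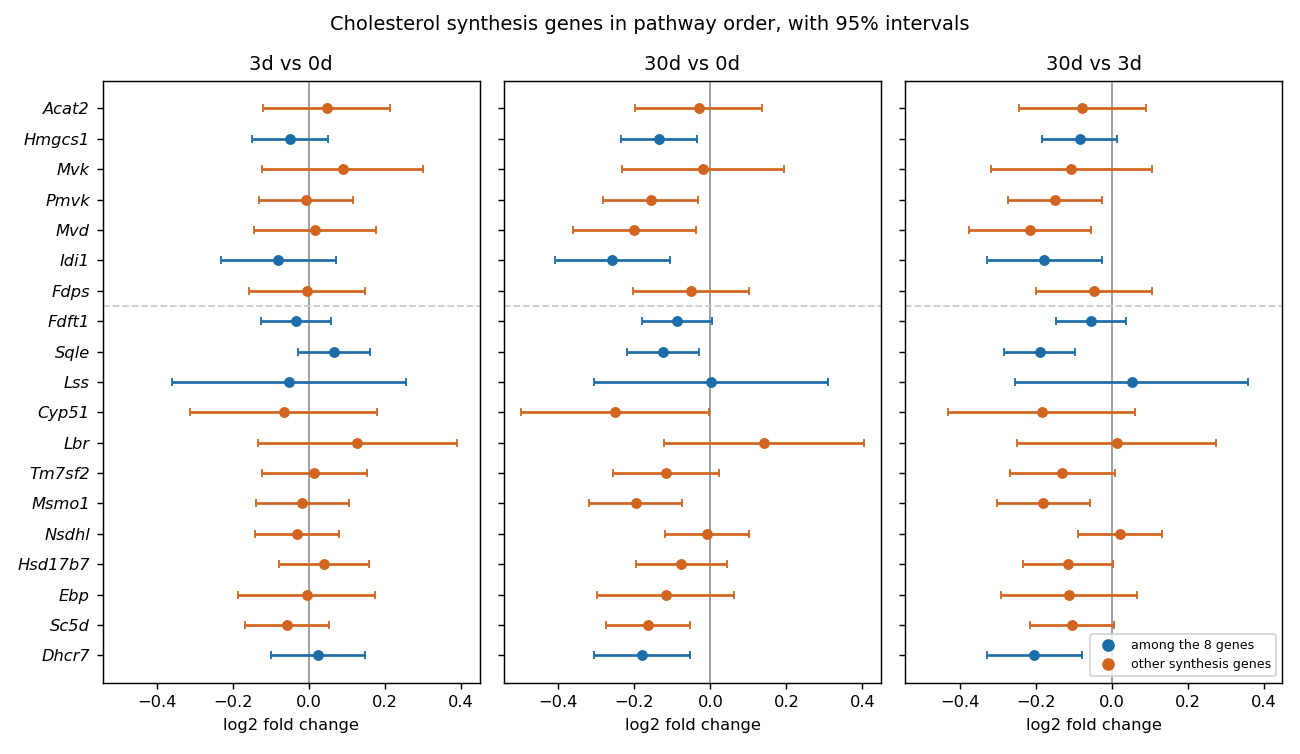
Log2 fold change (x axis) with 95% interval of 19 cholesterol synthesis genes in pathway order from top to bottom (y axis), in 3 comparisons. Blue marks the 6 enzymes among the 8 genes, orange the other 13, and the dashed line parts the mevalonate steps from the steps after farnesyl units. At 30d against 0d 17 of the 19 points lie left of 0.

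Counts in the next lists stand against 0.0231% to 0.935% of all tested genes called by edgeR in a comparison, and against 734 to 2254 of the 17328 tested genes at an unadjusted p under 0.05. At such shares no call is the usual outcome for lists of this size. Genes that control SREBP did not pass the test in any comparison (0 of 9 in edgeR, DESeq2 and limma-voom, Srebf2 and Insig1 included), and 0 to 2 of 9 had an unadjusted p under 0.05 in edgeR. Srebf1, the sister gene of Srebf2, differed by -0.071 at 30d against 0d, and Insig2, the second anchor protein, by 0.059 (adjusted p = 0.593 and 0.766 in edgeR). Rnf139, a ubiquitin ligase of the endoplasmic reticulum, differed by 0.0047. Of 12 genes of uptake and intracellular transport all 3 tools called 0 in each comparison as well, and 0 to 4 had an unadjusted p under 0.05 in edgeR. Lrp8, a receptor for apolipoprotein E, was at 46.2 and 44.8 CPM at 0d and 53.9 and 55.6 CPM at 3d (log2 fold change 0.27, SE 0.069, adjusted p = 0.229). Scarb1, a receptor for high-density lipoprotein, differed by -0.19 at 1d, and Lipa, the lysosomal lipase that frees cholesterol from its esters, by -0.094 at 30d (adjusted p = 1.000 and 0.464).

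Of 11 genes of efflux, storage and oxysterols edgeR called 1, Apoe, which encodes the lipoprotein that carries cholesterol between cells of the nerve. Apoe was at 2286 and 2243 CPM at 0d, 2095 and 2221 CPM at 1d, 2179 and 2184 CPM at 3d and 1819 and 1911 CPM at 30d, so both 30d libraries were below the other 6. It fell by 0.28 on the log2 scale at 30d against 0d (SE 0.039, adjusted p = 0.0322 in edgeR), by 0.23 against 3d (adjusted p = 0.0128) and by 0.21 against 1d (adjusted p = 0.0213). Without 1 library at a time the adjusted p against 0d ranged from 0.00319 to 0.138, and the call held in 6 of 8 such fits, all but those without replicate 1 or 2 of 3d (0.138 and 0.123). Against 3d it was lost without the same libraries (0.238 and 0.244), and against 1d without replicate 2 of 1d (0.253), either library of 3d (0.0736 and 0.0839) or replicate 1 of 30d (0.0652). Of the 10 other settings the call against 0d was lost in 4, without robust estimation (0.102), with only the compared time points (0.102) and with the length (0.101) or GC trend removed (0.0703). It was lost in 2 of 10 against 3d, with the length (0.145) or GC trend removed (0.0718), and in 3 of 10 against 1d, in those fits (0.247 and 0.0930) and with only the compared time points (0.0899). In the fits against 0d that lost the call the fold stayed between -0.31 and -0.27 on the log2 scale. With the length and the GC trend removed it was -0.21 and -0.25 against 3d and -0.20 and -0.24 against 1d. With only the compared time points it was -0.21 against 1d. Abca1, a cholesterol exporter, differed by 0.14 at 3d against 0d and Cyp27a1, which makes an oxysterol, by 0.52 at 30d (adjusted p = 0.793 and 0.256), the latter at a level of 4.74 to 8.54 CPM.

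Of 10 fatty acid genes that SREBP1 is known to switch on, edgeR and limma-voom called 2, both lower in 30d against 3d, where DESeq2 called 5 (Scd1, Scd2, Elovl6, Fads1 and Fads2). Over all 17328 tested genes edgeR called 162 in that comparison and DESeq2 378. DESeq2 also called Scd1, Elovl6, Fads1 and Fads2 in 30d against 0d (184 of all tested genes), Fasn in 3d against 0d (109), and Scd1 in 3d against 1d (110) and in 30d against 1d (229). Scd1, the main desaturase that makes oleate, was at 1067 and 1099 CPM at 0d, 1055 and 1062 CPM at 1d, 1185 and 1177 CPM at 3d and 970.2 and 948 CPM at 30d. It fell by 0.30 on the log2 scale from 3d to 30d (SE 0.035, adjusted p = 0.000940 in edgeR). Elovl6, an elongase, fell by 0.25 (SE 0.052, adjusted p = 0.0326), from 151 and 155 CPM to 122 and 134 CPM. The call of Scd1 was lost without replicate 1 of 3d (adjusted p = 0.0611), and that of Elovl6 without either library of 3d or replicate 1 of 30d (adjusted p = 0.348, 0.454 and 0.0747). Elovl6 also missed the threshold without robust estimation (0.0684) and with the length (0.0560) or GC trend removed (0.0953), where the log2 fold change was -0.25, -0.27 and -0.26. Fasn, the fatty acid synthase, was at 582 and 587 CPM at 3d against 519 and 510 CPM at 0d (log2 fold change 0.18, SE 0.039, adjusted p = 0.102 in edgeR, past the threshold in DESeq2). Sqle, Insig1 and Dhcr7 had their highest group mean at 3d as well, though for Dhcr7 the 3d libraries lay between those of 0d, as given above.

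Across libraries most of the 8 genes varied together, Srebf2 and Fdft1 less closely and Lss least. Each gene was set against the mean of the other 7 (each scaled to unit variance over the 8 libraries). Pearson's r was highest for Hmgcs1 at 0.890 and lay between 0.841 and 0.860 for Dhcr7, Sqle, Insig1 and Idi1. It was 0.713 for Srebf2, 0.650 for Fdft1 and 0.379 for Lss. Of 14637 other genes with a mean of at least 1 CPM, the 5 whose log2 CPM was most like the mean of the 8 were Msmo1 (r = 0.991), Erp29 (0.983), Fads1 (0.972), Spcs1 (0.970) and Fads2 (0.969). Msmo1 is an enzyme of the same pathway, Fads1 and Fads2 are desaturases of fatty acids, and Erp29 and Spcs1 act in the folding and processing of secreted proteins. These are descriptions over 8 libraries that share time points and preparation, and the highest of many correlations is high by selection. Replicate 1 of 30d weighs on every r, with a mean scaled level of the 8 genes of -1.66, against -0.54 to 0.93 in the other libraries.

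Both the library in which the 8 genes were lowest and a 0d library were at extremes in other respects. Their summed level was 1809 CPM in replicate 1 of 30d and between 1898 and 2063 CPM in the other 7. In the same library the 10 myelin markers summed to 5941 CPM, against 8275 to 11485 CPM in the others, and the 11 neuron markers to 20549 CPM, against 20925 to 21861 CPM, where the lowest of the others was replicate 2 of 30d. The red blood cell markers were at 515 CPM there, against 141 to 282 CPM, and the 4 tested adipocyte markers with their untested partner summed to 11.6 CPM, against 1.89 to 4.94 CPM. edgeR called 0 of 10 myelin markers in each comparison, with 0 to 4 at an unadjusted p under 0.05, while in 30d against 3d DESeq2 called 2 and limma-voom 1. Of the 11 neuron markers edgeR called 1 higher in 3d against 0d and 1 lower in 30d against 3d (Calca in both). In 30d against 3d DESeq2 called 3 (Tubb3 and Calca lower, Snap25 higher) and limma-voom 2 (Tubb3 and Calca, both lower). Snap25 was at 1293 and 1301 CPM at 3d and at 1381 and 1478 CPM at 30d. Replicate 1 of 0d, 1 of the 2 libraries behind every comparison with 0d, had the highest summed myelin (11485 CPM, against at most 9663), fibroblast (1917 CPM, against at most 1410.4) and skeletal muscle markers (120 CPM, against at most 99.7) and the lowest red blood cell markers (141 CPM). The part of these cell types in the levels of the 8 genes was not tested. Without replicate 1 of 0d the median log2 fold change of the 8 genes in 30d against 0d was -0.13, and without replicate 2 of 0d it was -0.089. In replicate 2 of 30d, whose myelin markers were at 8302 CPM, the 8 genes summed to 1952 CPM, below both libraries of 0d and of 3d. The sums of its myelin and of its neuron markers were also below those of both libraries of 0d and of 3d.

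**Figure D4:**
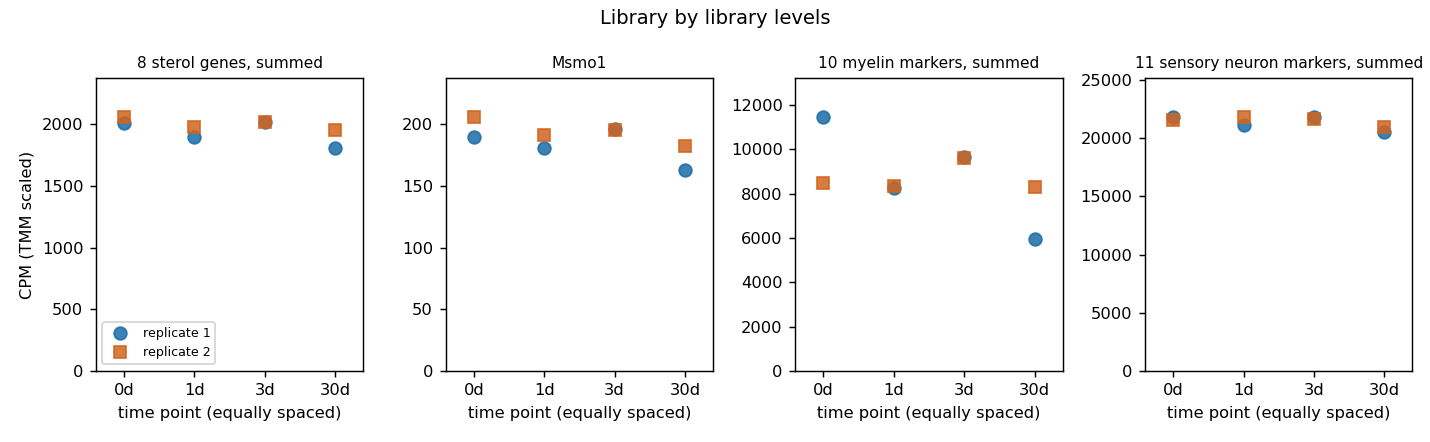
Summed CPM of the 8 genes, CPM of Msmo1, summed CPM of 10 myelin markers and summed CPM of 11 sensory neuron markers (y axes, from 0) in each library, by time point (x axis, equally spaced). Circles are replicate 1 and squares replicate 2. Replicate 1 of 30d is the lowest point in all 4 panels, at 1809, 163, 5941 and 20549 CPM.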

How the data were processed

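RNA-seq counts per gene were used for all 8 libraries, 2 per time point, each from a pool of mice. The tests set differences between time points against the spread between libraries of a group, which are different pools. That spread was estimated per gene over the 4 groups together and drawn toward the estimates of other genes. The authors used cutadapt 2.10 for trimming and STAR 2.7.5a for alignment to mm10, then counted fragments on UCSC gene exons with featureCounts 2.0.1. They deposited raw counts, without normalization, in 1 table. Per the file headers, strand was ignored, reads over several genes were counted for each, and reads with several alignments were left out. Gene lengths came from the same table.

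From these counts, genes were filtered with filterByExpr, which left out 7093 genes holding at most 0.0120% of a library's counts, and scaled by TMM in edgeR 4.0.16 (R 4.3.3). All libraries entered 1 quasi-likelihood fit with time point as the only term. Benjamini-Hochberg adjustment covered 17328 genes, with a threshold of 0.05. Each SE was derived from the fold change and its F statistic. Alternatives used DESeq2 1.42.0, limma 3.58.1, other scalings, no filter, a replicate block, trends of length or GC content removed, and each library left out. Scripts were tested on simulated data. At these depths each of the 8 genes had at least 1832 counts in every library, so the spread between pools, not counting error, limits precision.

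The genes and lists were chosen with earlier results of these data known. Beside the 8, the text names list genes past the threshold, the 3 of each list with the smallest p over the time points, and the 5 genes most like the mean of the 8. An item of the lists is not reported here, and the lists were counted without it. Genes that share sequence with one of the 8, and markers that were called, are named beside them.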

Additional observations from a re-analysis of the deposited data

Results flagged for a closer look

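Some results were marked because a test of the difference itself found the level at 30d to differ from that at an earlier time after the injection. Apoe had a log2 fold change of -0.23 in 30d against 3d and of -0.21 in 30d against 1d (adjusted p = 0.0128 and 0.0213 in edgeR). Scd1 differed by -0.30 and Elovl6 by -0.25 in 30d against 3d (adjusted p = 0.000940 and 0.0326). Of the 8 genes themselves none met such a rule. With 2 libraries per group, single libraries were not tested for standing apart from their group.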

How the results depend on the processing

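For the 8 genes the count called was 0 in all 6 comparisons and stayed 0 in the 10 other settings, except in 30d against 3d. There it was 2 without a filter on low counts (Sqle and Dhcr7), and 1 (Sqle) in DESeq2, with only the compared time points fitted and with the replicate block. Leaving out 1 library, which leaves a group of 1 that is assumed to vary like the others, gave 0 to 2 in 30d against 3d, 0 to 1 in 30d against 0d and 0 to 1 in 30d against 1d. Without replicate 2 of 30d, Idi1 was called against 0d and Sqle and Insig1 against 3d, and without replicate 1 of 30d, Lss was called higher against 3d and 1d. The median log2 fold change of the 8 genes ranged over the fits without 1 library from -0.21 to -0.070 in 30d against 0d, from -0.21 to -0.083 in 30d against 3d and from -0.12 to -0.018 in 30d against 1d. The cause was not tested.

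The correlations of replicate deviations between time points were -0.014 to 0.044 over all tested genes. Whether libraries with the same replicate number shared a batch was not tested. With the replicate block the count of the 8 genes called was 1 (Sqle) in 30d against 3d and 0 in the other comparisons. Lss in 30d against 0d was then at -0.0078. Of all tested genes edgeR called more with the block than without it in each comparison. The count was 69 with it and 4 without in 30d against 0d, 225 and 162 in 30d against 3d, and 159 and 99 in 30d against 1d.

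Values near 0 changed sign. Srebf2 in 3d against 0d was -0.0071 with total counts only, -0.014 with the length trend and -0.0035 with the GC trend removed. Lss in 30d against 0d was -0.0012 without a filter, -0.0073 in limma-voom, -0.044 with the length trend and -0.020 with the GC trend removed. Over the fits without 1 library, the ranges that crossed 0 in 1d against 0d were -0.030 to 0.051 for Fdft1 and -0.044 to 0.011 for Srebf2. In 3d against 0d they were -0.056 to 0.11 for Dhcr7, -0.075 to 0.0082 for Fdft1 and -0.0066 to 0.012 for Srebf2. In 3d against 1d they were -0.051 to 0.036 for Idi1, -0.0078 to 0.047 for Srebf2 and -0.025 to 0.059 for Apoe. For Lss they were -0.24 to 0.20 in 30d against 0d, -0.19 to 0.25 in 30d against 3d and -0.12 to 0.31 in 30d against 1d. In 30d against 1d they were also -0.098 to 0.046 for Hmgcs1, -0.096 to 0.013 for Dhcr7 and -0.14 to 0.045 for Insig1.

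The number of all tested genes called depended on the setting, with 4 in 30d against 0d, 184 in DESeq2 and 0 without robust estimation or with only the compared time points. In 30d against 3d it was 162, with 92 to 378 over the other settings, in 30d against 1d 99 (74 to 229), in 3d against 1d 50 (43 to 260), in 3d against 0d 38 (20 to 121) and in 1d against 0d 60 (49 to 110). The counts in 30d against 3d and in 30d against 1d moved further in the fits without 1 library. With 2 pools per group, intervals of the 8 genes reached at most 0.31 to either side on the log2 scale.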
